A study of Mus musculus with 11 samples.

Results

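Potassium channel genes were followed through mouse cerebral cortex after a photothrombotic stroke. Members were all genes of the expression table whose symbol starts with Kcn, continues with lower-case letters and ends with a number, and whose mean over the 11 libraries was at least 1 CPM, a unit that scales the tags of a gene to the total of its library. Of 81 such symbols among 22377 genes in the table, 73 passed the limit and form the set described here. No measured difference between groups entered the choice. The 8 symbols under the limit were Kcne2, Kcne3, Kcnh8, Kcnj14, Kcnj15, Kcnj5, Kcnn4 and Kcnq1. The member nearest to the limit was Kcnmb1, with a mean of 1.48 CPM, followed by Kcnk5 with 1.59 CPM, and the nearest symbol outside it was Kcnj14 with 0.96 CPM.

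Potassium channels let potassium leave the cell, or enter it in the case of inward rectification, and so set the resting potential of neurons and glia and end each action potential. Voltage-gated pore subunits (Kcna, Kcnb, Kcnc, Kcnd, Kcnh and Kcnq) open on depolarization, silent modifier subunits (Kcnf, Kcng, Kcns and Kcnv) alter the channels they join, and beta and interacting subunits (Kcnab, Kcnip, Kcne and Kcnmb) tune gating and trafficking. Channels opened by calcium or sodium (Kcnma1, Kcnn, Kcnt), inward rectifiers (Kcnj) and two-pore-domain leak channels (Kcnk) complete the set. In cortex, Kcnc channels are known for fast firing of inhibitory interneurons, Kcnq channels for restraining repeated firing, and Kcnj10 for the uptake of potassium by astrocytes.

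The series holds 11 libraries from cerebral cortex, 1 per group, made by cap analysis of gene expression (CAGE), which counts the capped 5′ ends of transcripts. The animals were male C57BL/6N mice, given by the study as 8 to 10 and 65 to 85 weeks old, without an age for each library. A cortical infarct was made on the left by shining light on the parietal region for 30 min after rose bengal, a dye that clots vessels when lit, at 35 mg/kg intraperitoneally. Infarcted and non-infarcted sides were collected at 7 d and 1 m, each without and with the anti-seizure drug levetiracetam (LEV, 5 mg/mL in the drinking water), and at 2 m after 2 weeks of withdrawal from the drug. A naive cortex, with no infarct and no drug, was the untreated control. The study text places drug treatment 1 month after the stroke and a withdrawal of 1 week, which differs from the sample labels. The labels are followed here, so the drug's timing in the 7 d libraries is uncertain. The number of mice behind a library, and whether both sides came from the same mice, are not given in the sources used here. The light was confined to a circle in the parietal region while whole cortex was taken, so each infarcted library holds lesion together with spared tissue. With 1 library per group, p-values measure the spread between libraries across states or across genes, which may be partly technical.

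Libraries held 12928291 to 21000367 tags, of which 92.3% to 97.3% fell in genes, and 3 tags corresponded to 0.143 to 0.232 CPM. Markers of neurons, both excitatory and inhibitory, were present in every library, as were those of astrocytes and oligodendrocytes. Microglial markers summed to 818 to 2431 CPM on the infarcted side against 424 to 543 CPM on the other, and macrophage markers to 92.5 to 970 against 26.5 to 41.6 CPM. The 10 pan-neuronal markers were all lower on the infarcted side on average, with a median log2 difference of -0.18 and 0 of 10 called, and 7 of 7 striatal markers were higher, with a median of 0.40 and 0 of 7 called. Choroid plexus markers summed to 356 CPM in naive cortex and 200.3 CPM in the 1 m LEV non-infarcted library, against 12.7 to 29.1 CPM in the other 9. In bulk tissue, fewer cells of a type and less RNA per cell cannot be told apart.

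In naive cortex the members ranged from 1.01 to 278.8 CPM with a median of 34.7 CPM. CAGE counts 1 end per transcript, so levels of different genes compare without a length term. In that library 27 members lay above 50 CPM and 20 under 10 CPM. Kcnab2, a beta subunit of Kcna channels, had the highest mean over all libraries at 311 CPM. It was followed by the strong inward rectifier Kcnj4 at 147 CPM. Also among the highest were the fast voltage-gated subunit Kcnc1 at 119 CPM, and Kcnma1, the pore of the large-conductance calcium-activated channel, at 117 CPM. Kcnip3 (108 CPM), Kcnip4 (92.7 CPM), Kcnh7 (89.4 CPM) and Kcnmb4 (86.5 CPM) were in the first 10 as well. The libraries' ranges for these neighbours overlapped, so their order is a description except for Kcnab2, whose lowest library, 244 CPM, lay above the highest of any other member, 239 CPM for Kcnj4.

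**Figure D1:**
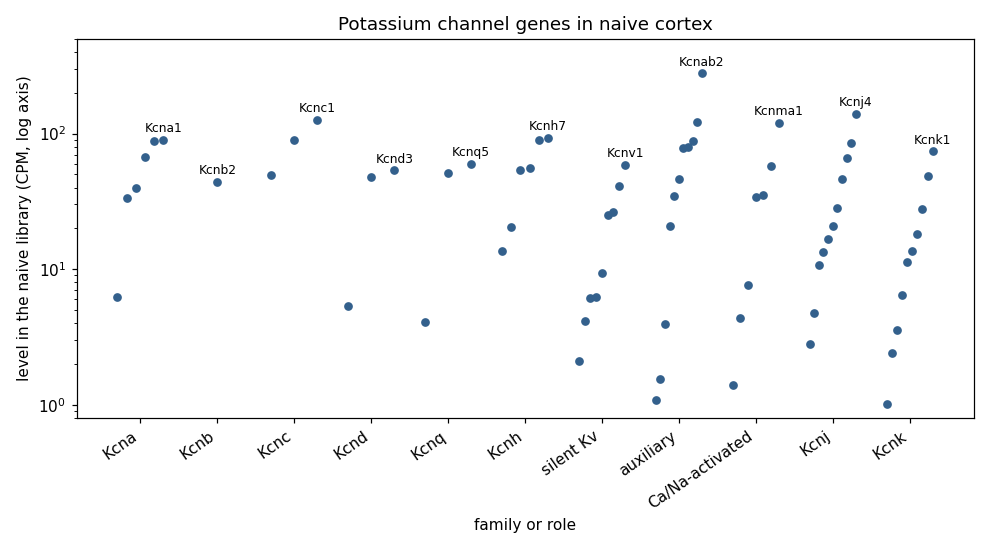
Levels of 70 of the potassium channel genes by role, in CPM on a log axis; each point is 1 gene in the naive library. Auxiliary subunits span the widest range, from Kcnmb1 at 1.08 CPM to Kcnab2 at 278.8 CPM.

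The first comparison asked how the infarcted side differed from the opposite cortex. Potassium channel genes were mostly lower on the infarcted side: 58 of 73 had a negative log2 difference, with a median of -0.15 against 0.01 over all 16229 genes tested. In limma, with state (time and drug) as a factor and Benjamini-Hochberg adjustment over all genes, 8 members passed an adjusted p of 0.05, the threshold for a call throughout. Of these, 7 fell and 1 rose, that is 9.59% lower and 1.37% higher, where 7% of all genes were called, 0.789% lower and 6.21% higher. With each library centred on its median gene, 15 members were called lower and 0 higher. The share of all genes called with this centring is not given here. The 7 that fell were the voltage-gated subunits Kcnh1, Kcnh7, Kcnc1 and Kcnc2, the silent modifier Kcns1, and the two-pore-domain channels Kcnk4 and Kcnk12, and Kcnk5, another two-pore-domain channel, rose.

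Kcns1, a silent subunit that joins Kcnb channels and cannot form a channel alone, had the largest decrease. On the infarcted side it measured 4.52 CPM at 7 d, 4.40 at 7 d with LEV, 4.24 at 1 m, 4.43 at 1 m with LEV and 4.33 at 2 m. On the other side it measured 7.06, 8.19, 5.81, 7.76 and 5.65 CPM in the same order, and 6.11 CPM in naive cortex. The sides did not overlap, and the infarcted libraries were nearly level across the states. The log2 difference was -0.54 ± 0.10 (SE, 5 states, limma adjusted p = 0.0202).

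Kcnk4, a leak channel opened by membrane stretch and fatty acids, also separated the sides without overlap. The infarcted libraries held 17.5, 20.2, 20.7, 19.5 and 24.9 CPM and the non-infarcted ones 29.6, 30.5, 26.1, 25.3 and 27.6 CPM, in the same order, with 27.9 CPM in naive cortex. Within a state the gap was widest at 7 d, at -0.72 on the log2 scale, and narrowest at 2 m, at -0.14. Over the 5 states it was -0.42 ± 0.09 (SE, limma adjusted p = 0.0287). Kcnk12, a two-pore-domain subunit that gives little current by itself, measured 13.4, 14.8, 16.2, 13.0 and 19.2 CPM on the infarcted side and 20.8, 17.6, 17.8, 21.1 and 24.8 CPM on the other. It was lower within each state, although the sides overlapped, by -0.39 ± 0.10 (SE, limma adjusted p = 0.0413).

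All 6 Kcnh members, voltage-gated subunits of the EAG, ERG and ELK families, had a negative difference, and 2 of the 6 were called. Kcnh1, the EAG founder, held 36.4, 42.4, 43.3, 56.1 and 55.5 CPM on the infarcted side and 49.6, 54.2, 63.8, 66.6 and 65.4 CPM on the other. Kcnh7, of the ERG family, held 79.7, 87.2, 74.0, 79.0 and 82.9 CPM against 97.0, 114.4, 86.5, 93.7 and 96.3 CPM. Each was lower in every state, with infarcted values reaching into the range of the other side. The difference was -0.36 ± 0.07 for Kcnh1 and -0.27 ± 0.06 for Kcnh7 (SE, limma adjusted p = 0.0181 and 0.0256). Kcnh3, an ELK channel of forebrain neurons, came close to the threshold at -0.36 (limma adjusted p = 0.0582).

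Of the Kcnc members 2 were called. Kcnc1, a fast voltage-gated subunit, held 91.6, 103.8, 107.1, 91.3 and 140.6 CPM on the infarcted side and 117.6, 141.0, 133.7, 104.8 and 145.8 CPM on the other. Kcnc2, which is known from parvalbumin and somatostatin interneurons, held 57.3, 63.0, 67.1, 72.6 and 75 CPM against 71.9, 85.3, 81.3, 83.2 and 85.6 CPM. Both were lower in every state and overlapped between the sides. The differences were -0.27 ± 0.07 for Kcnc1 and -0.28 ± 0.06 for Kcnc2 (SE, limma adjusted p = 0.0461 and 0.0280). The 8 inhibitory neuron markers had a median difference of -0.14 with 0 of 8 called, the 8 excitatory ones -0.16 with 0 of 8 called. Of the inhibitory ones 6 were negative and 2 positive. Pvalb was at -0.36 and Sst at -0.26 (limma adjusted p = 0.0865 and 0.0992). The part of cell composition in these decreases was not tested.

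Kcnk5, an acid- and volume-sensitive leak channel, was the member that rose. It measured 2.59, 2.32, 1.72, 1.61 and 2.45 CPM on the infarcted side, 1.5, 0.957, 0.654, 1.48 and 1.21 CPM on the other and 1.01 CPM in naive cortex. Every infarcted library lay above every other one, at a level that remained low. The difference was 0.54 ± 0.13 (SE, limma adjusted p = 0.0449), and the call held in 3 of 11 alternatives. Such a gene is not rare among the genes tested, since 3.23% of them separated the sides upward without overlap, while 0.45% did so downward. Downward separation was seen in 3 of 73 members, Kcns1, Kcnk4 and the G-protein-gated rectifier Kcnj6, the last at 59.0 to 63.4 CPM against 64.1 to 78.2 CPM.

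**Figure D2:**
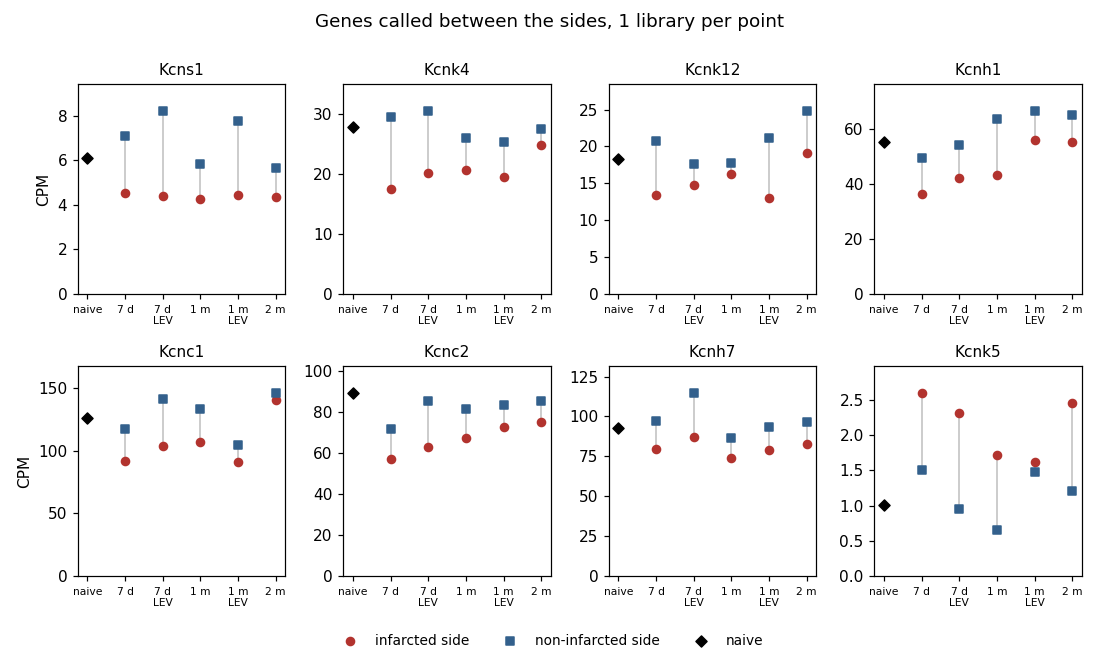
CPM of the 8 potassium channel genes called between the sides, 1 panel per gene, with a point for each library: infarcted and non-infarcted sides in 5 states and naive cortex. Kcns1, Kcnk4 and Kcnk5 separate the sides completely, and the other 5 differ within each state while their ranges overlap.

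Promoters are shown for 3 of the calls, and these differ in make-up. The 250 bases before the annotated start of the 3 genes that separated the sides and passed the test are shown because CAGE reads transcription from such starts (RefSeq, GRCm38.p6). Capitals mark GGGCGG, the GC box, or its reverse complement CCGCCC. All 3 genes are on the minus strand and each sequence is written 5′ to 3′ along the gene. They end 1 base before the start of Kcns1 (gene at chr2:164163619-164171113) and Kcnk4 (gene at chr19:6923966-6934515) in GENCODE M21, and lie partly inside the GENCODE M21 gene for Kcnk5 (chr14:20140057-20181809).
Kcns1, chr2:164171114-164171363: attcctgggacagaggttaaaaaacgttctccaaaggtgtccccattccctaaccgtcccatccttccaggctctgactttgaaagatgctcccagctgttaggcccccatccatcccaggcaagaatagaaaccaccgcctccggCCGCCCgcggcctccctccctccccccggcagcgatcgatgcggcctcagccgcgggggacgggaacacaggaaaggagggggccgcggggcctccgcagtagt
Kcnk4, chr19:6934516-6934765: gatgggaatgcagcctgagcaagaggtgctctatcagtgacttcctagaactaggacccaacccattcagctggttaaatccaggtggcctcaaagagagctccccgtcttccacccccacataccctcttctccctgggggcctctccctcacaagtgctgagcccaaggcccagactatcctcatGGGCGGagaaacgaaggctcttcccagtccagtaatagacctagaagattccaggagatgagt
Kcnk5, chr14:20181783-20182032: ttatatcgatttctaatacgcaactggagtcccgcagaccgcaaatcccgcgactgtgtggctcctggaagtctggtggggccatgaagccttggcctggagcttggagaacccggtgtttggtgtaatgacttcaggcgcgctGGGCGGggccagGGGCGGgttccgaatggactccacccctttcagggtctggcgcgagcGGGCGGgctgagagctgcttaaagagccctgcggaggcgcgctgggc
The Kcns1 window holds 17 CpG dinucleotides and 1 GC box, that of Kcnk4 3 CpG and 1 GC box, and that of Kcnk5 19 CpG and 3 GC boxes. None of them holds TATAAA or CCAAT on either strand. Among 32851 promoter windows of the same length, GGGCGG on either strand occurred in 32.74%, TATAAA in 12.37% and CCAAT in 33.85%. Of the 73 members 52 had a window in the table, 75 windows in all, with shares of 44%, 4% and 32%.

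Among the silent modifiers 9 of 9 were negative, with a median of -0.23 and 1 called. This direction was not particular to them, since 6 of 6 Kcnh members were negative too and of all 73 members 15 were positive. Kcna2, of axonal channels, was lower in all 5 states at 56.2, 67.0, 70.4, 79.4 and 76.6 CPM against 79.2, 96.9, 81.3, 84.3 and 84.6 CPM, and missed the threshold (-0.29, limma adjusted p = 0.063). In all, 16 of 73 members (21.9%) were lower on the infarcted side in all 5 states, where 7.83% of all genes were. Higher in all 5 states were 2 of 73, Kcnk5 and the small auxiliary subunit Kcne4, against 14.8% of all genes.

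Of the 15 members with a positive difference, Kcnk5 alone was called. Kcnk6, a two-pore-domain channel of endosomes and lysosomes, measured 8.08, 8.46, 5.10, 2.03 and 3.13 CPM on the infarcted side and 3.11, 3.19, 2.69, 2.24 and 2.73 CPM on the other. The excess was in the 7 d and untreated 1 m libraries, and the test over 5 states was not passed (0.62 ± 0.20, SE, limma adjusted p = 0.0939). Kcnj10 had a log2 difference of 0.26 (adjusted p = 0.123), Kcnj8, a subunit of pericyte ATP-sensitive channels, 0.21 (adjusted p = 0.442), and Kcnk13, known from microglia, 0.12 (adjusted p = 0.53), all by limma. Negative differences, none called, were found for Kcna3 (-0.10), Kcnk1 (-0.15) and Kcnk2 (-0.17). Microglial markers were called higher for 7 of 8 genes, with a median of 1.03, and astrocyte markers for 3 of 8, with a median of 0.22. Kcnn4, a calcium-activated channel of activated microglia, had a mean of 0.368 CPM and was not tested.

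**Figure D3:**
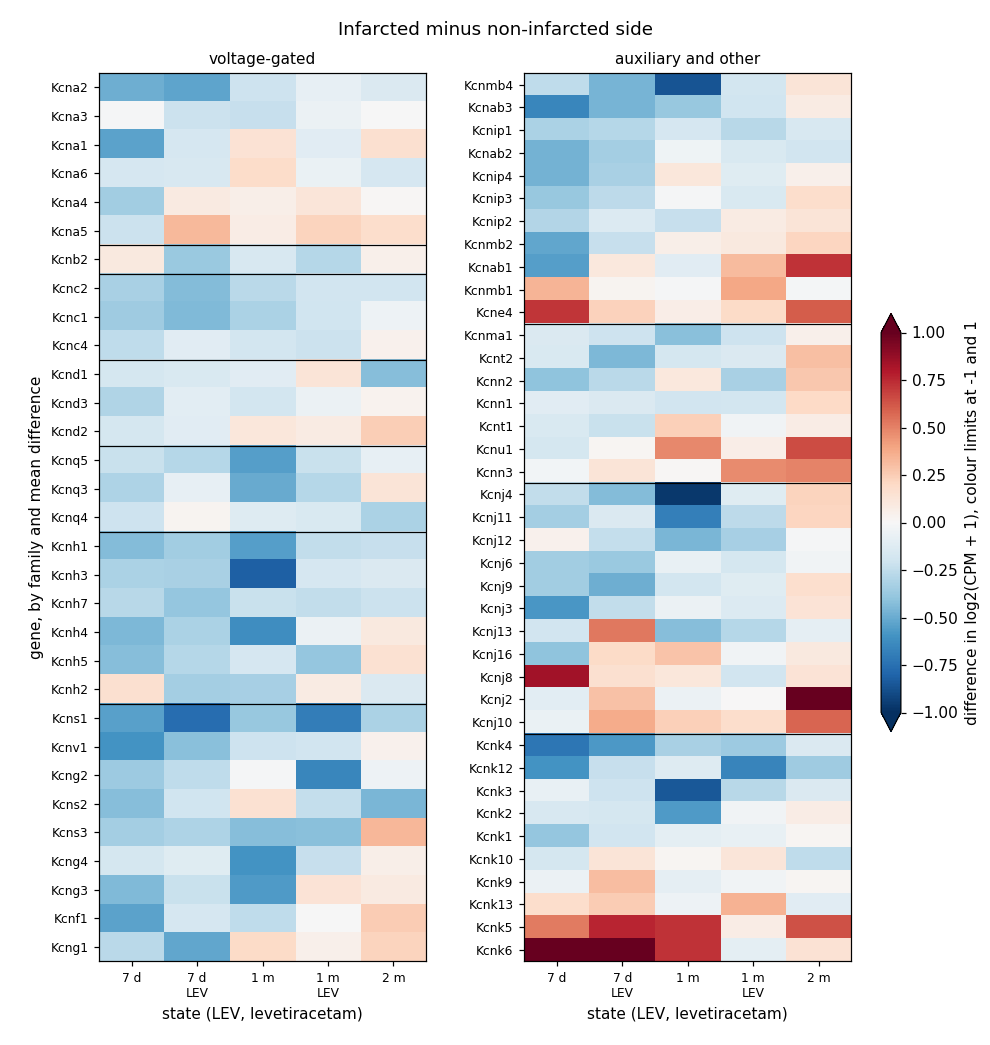
Log2(CPM + 1) difference, infarcted minus non-infarcted side, for 70 members (rows, ordered by role) in the 5 states (columns). Negative values prevail at 7 d, where 63 of all 73 members are lower, and at 2 m 46 of 73 are higher, where 40.9% of all genes were lower, so the 2 m column is near the background.

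The size of the side difference was not the same in each state. The members' median log2 difference was -0.30 at 7 d, -0.22 at 7 d with LEV, -0.17 at 1 m, -0.14 at 1 m with LEV and 0.06 at 2 m, where the medians of all genes lay between -0.05 and 0.06. The members lower on the infarcted side numbered 63, 55, 53, 54 and 27 of 73 in that order, where 56.3%, 47.3%, 41.2%, 50.02% and 40.9% of all genes were lower. At 2 m the members' share and median were thus near those of all genes. The calls depend on the states included. Without the 7 d, the 7 d LEV or the untreated 1 m pair, 0 members were called. Without the 2 m pair 14 were called, all lower. Of the 8, Kcnc1, Kcnc2, Kcnh7 and Kcnk12 lost their call without the 1 m LEV pair. Kcnk12 and Kcnk5 lost it without the 2 m pair. Fewer pairs enter these fits, and the shares of all genes called in them are not given here. Each of the 8 kept its sign in every alternative it was tested under. Of 12 alternatives the call held in 5 for Kcnc1 and Kcnk12 and in 7 for Kcnc2 and Kcnh7. It held in 8 for Kcnh1 and Kcnk4 and in 9 for Kcns1.

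The 2 m libraries, 1 per side, entered the tests over 5 states but had no test of their own. Their ratios carry exact 95% intervals on tags, which cover counting error only. Intervals lay above 1 for 23 members (31.5%) and below 1 for 12 (16.4%), close to the shares of all genes, 29.8% and 16.2%. At 7 d they lay above 1 for 4 members (5.48%) and below 1 for 46 (63%), where the shares of all genes were 21.5% and 28.9%. Kcnj2, a strong inward rectifier, measured 9.80 CPM on the infarcted and 3.88 CPM on the other side, a ratio of 2.52 (1.88 to 3.42). Its non-infarcted value was the lowest of the 11 libraries, and the infarcted value lay below the naive 10.7 CPM. Kcnab1, a beta subunit that speeds inactivation of Kcna channels, measured 61.4 against 36.8 CPM, a ratio of 1.67 (1.51 to 1.85). Kcnj10 measured 51.2 against 33.8 CPM, a ratio of 1.52 (1.36 to 1.69). Kcns2, a silent modifier, went the other way at 17.3 against 24.2 CPM, a ratio of 0.717 (0.616 to 0.835). In the same libraries striatal markers summed to 841 against 585 CPM, excitatory neuron markers to 2474 against 1830 CPM and pan-neuronal markers to 7919 against 7113 CPM, and their part in these ratios was not tested.

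Against the naive library, no member was called on either side. On the infarcted side the test called 0 of 73 members, with 0.00611% of 16367 genes called, 2 members at an unadjusted p below 0.05 (3.81% of all genes) and 0 by edgeR. On the other side it called 0 of 73, with 0% of 15983 genes called, 0 members at an unadjusted p below 0.05 (0.945% of all genes) and 0 by edgeR. Both comparisons use the same naive library, which is assumed to vary like the others. For some genes that library stood with those of 1 m, apart from 7 d and 2 m, as described below. All 5 infarcted libraries lay below naive for 18 members (24.7%, against 12.2% of all genes), among them Kcnc2, Kcnh7, Kcnk4 and Kcns1 of the genes called between the sides. They lay above it for 4 members, Kcne4, Kcnj10, Kcnk5 and Kcnu1 (17.9% of all genes). On the non-infarcted side 8 members lay below naive in all 5 libraries (10.6% of all genes) and 3 above, Kcnc4, Kcnj10 and Kcnv1 (8.29%). Kcnj10 was thus above the naive 28.4 CPM in all 10 libraries after stroke, at 30.5 to 60.7 CPM. Kcnc2 was below the naive 89 CPM in all 10.

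Between 7 d and 1 m, some inward rectifier, leak and voltage-gated channel genes rose on both sides. Of the 10 two-pore-domain genes 2 were called higher on each side and 1, Kcnk6, lower on the infarcted side, and of the 11 inward rectifiers 3 were called higher and 1 lower on each side. On the infarcted side limma, with the drug as a second factor, called 17 of 73 members (23.3%), 15 higher and 2 lower at 1 m, where 16.7% of 16399 genes were called, 5.27% higher and 11.4% lower. On the non-infarcted side it called 12 of 73, 10 higher and 2 lower, where 12.4% of 15931 genes were called, 5.98% higher and 6.45% lower. Of these, 10 were called on both sides with 1 sign, 58.8% of the 17 and 83.3% of the 12. The matching shares of all genes are not given here, so this overlap is not read as particular to the members. Among the 10, Kcnq3, Kcnj2, Kcnj4, Kcnk2, Kcnk3, Kcna3, Kcnh3 and Kcnmb4 rose and Kcnj10 fell. Without regard to calls, both 1 m libraries lay above both 7 d libraries for 35 members on the infarcted side (22.9% of all genes) and 26 on the other (21.6%), and below them for 9 (33.2%) and 17 (35.3%). Positive differences over time were found on the infarcted side for 8 of 8 inhibitory neuron markers (4 called higher, median 0.40) and for 7 of 7 striatal markers (6 called, median 0.50), and on the other side 6 of 8 (1 called, median 0.12) and 2 of 7 (1 called, median -0.04). Of the 10 pan-neuronal markers 6 were positive on the infarcted side (0 called, median 0.06) and 0 on the other (1 called lower, median -0.27). Of the 8 excitatory markers 4 were positive on the infarcted side (1 called higher, median 0.06). On the other side 1 of these 8 was positive (1 called higher and 1 lower, median -0.22). The part of these marker lists in the members' differences was not tested. Each test has 4 libraries and 1 residual degree of freedom, so its spread is borrowed mostly from other genes.

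Kcnq3, a subunit of channels that restrain repeated firing, rose from 32.1 and 40.6 CPM in the untreated and LEV infarcted libraries at 7 d to 42.2 and 62.7 CPM at 1 m. On the non-infarcted side it rose from 40 and 43 to 60.1 and 76.5 CPM. The times did not overlap on either side. The log2 differences were 0.50 ± 0.15 and 0.70 ± 0.14 (SE, limma adjusted p = 0.0139 and 0.00609).

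Kcnj4, a strong inward rectifier of forebrain neurons, went from 78.4 and 94.8 to 118.8 and 220.4 CPM on the infarcted side and from 93.3 and 128.7 to 232.3 and 239.4 CPM on the other. On both sides the 1 m libraries lay above those of 7 d. The differences were 0.90 ± 0.14 and 1.10 ± 0.15 (SE, limma adjusted p = 4.21e-06 and 0.000419). Because it was also the member called with levetiracetam, its 250 upstream bases are shown (minus strand, 5′ to 3′ along the gene at chr15:79483714-79505241, RefSeq, GRCm38.p6), with the GC box or its reverse complement in capitals.
Kcnj4, chr15:79505242-79505491: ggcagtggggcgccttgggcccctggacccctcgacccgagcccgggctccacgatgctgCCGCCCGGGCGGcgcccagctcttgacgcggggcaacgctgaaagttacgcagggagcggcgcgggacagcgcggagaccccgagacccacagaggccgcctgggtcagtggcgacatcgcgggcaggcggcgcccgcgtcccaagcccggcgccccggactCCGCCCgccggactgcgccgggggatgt
The window holds 35 CpG dinucleotides, where the median of all windows is 6 and that of the members' 75 windows is 8, and 3 GC boxes, no TATAAA and no CCAAT.

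Kcnk3, an acid-sensitive leak channel, went from 6.57 and 6.66 to 10.3 and 15.1 CPM on the infarcted side and from 6.95 and 7.87 to 19.3 and 18.5 CPM on the other. Its differences were 0.82 ± 0.20 and 1.24 ± 0.16 (SE, limma adjusted p = 0.00202 and 0.000301). Kcna3, a slowly inactivating channel, went from 19.6 and 19.6 to 29.6 and 30.2 CPM, and on the other side from 19.8 and 22.9 to 34.9 and 31.6 CPM, by 0.58 ± 0.16 and 0.62 ± 0.15 (SE, limma adjusted p = 0.00792 and 0.0167). The other genes that rose on both sides did so by 0.49 to 0.61 on the infarcted and 0.65 to 0.77 on the non-infarcted side: the ELK channel Kcnh3, the rectifier Kcnj2, the mechanosensitive leak channel Kcnk2 and Kcnmb4, the neuronal beta subunit of the large-conductance calcium-activated channel.

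**Figure D4:**
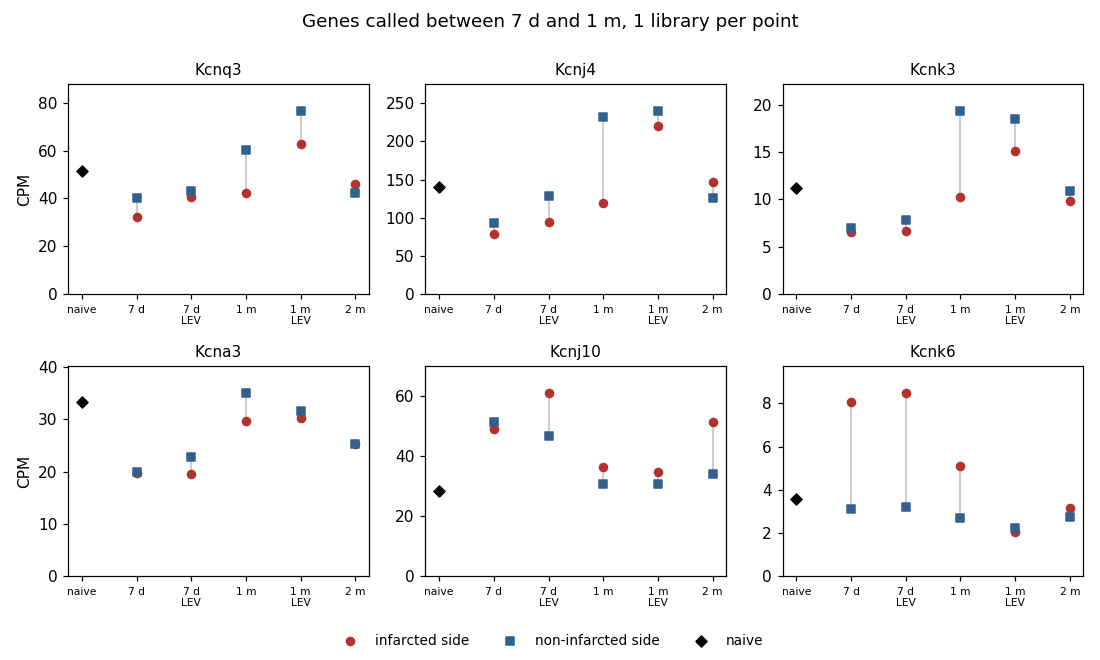
CPM of Kcnq3, Kcnj4, Kcnk3, Kcna3, Kcnj10 and Kcnk6 by state, with separate points for the infarcted and non-infarcted library of each state and for naive cortex. Kcnk3 and Kcna3 are higher in all 4 libraries of 1 m than in the 4 of 7 d, and Kcnj4 is too within each side, its infarcted untreated value at 1 m (118.8 CPM) lying under the non-infarcted LEV value at 7 d (128.7 CPM).

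Astrocytic Kcnj10 fell on both sides. It measured 48.9 and 60.7 CPM at 7 d and 36.4 and 34.7 CPM at 1 m on the infarcted side, and 51.3 and 46.7 against 30.7 and 30.5 CPM on the other. The differences were -0.60 ± 0.15 and -0.66 ± 0.14 (SE, limma adjusted p = 0.00269 and 0.00827). Astrocyte markers were called lower at 1 m for 3 of 8 genes on the infarcted and 2 of 8 on the other side, and their part in this was not tested. At 2 m Kcnj10 stood at 51.2 CPM on the infarcted and 33.8 CPM on the other side.

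Further genes were called on 1 side. On the infarcted side Kcng1, Kcnt1, Kcna4 and Kcnj9 were among those that rose, by 0.69, 0.52, 0.50 and 0.43 on the log2 scale. Kcng1 is a silent modifier, Kcnt1 a sodium-activated channel, Kcna4 a rapidly inactivating channel and Kcnj9 a G-protein-gated rectifier. Kcnk6 fell there from 8.08 and 8.46 CPM to 5.10 and 2.03 CPM, by -1.11 ± 0.22 (SE, limma adjusted p = 0.000223), while microglial markers were called lower for 7 of 8 genes (median -1.34) and macrophage markers for 4 of 5 (median -1.93). On the non-infarcted side Kcnj12, a strong inward rectifier, rose by 0.81 ± 0.16 (SE, limma adjusted p = 0.00587) and Kcnab2 fell from 386.8 and 407.8 to 252.2 and 271.0 CPM, by -0.60 ± 0.15 (SE, limma adjusted p = 0.0173).

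The test of the difference in time effect between the sides called 0 of 73 members, where 5.47% of 16228 genes were called, 0.24% upward and 5.23% downward. So no member was shown to change over time by side. By the same limma fit 9 members had an unadjusted p below 0.05 (16% of all genes). Kcnk6 came nearest, at -0.84 ± 0.27 (SE, limma adjusted p = 0.0531), followed by Kcng1 at 0.51 ± 0.18 (SE, limma adjusted p = 0.0813).

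**Figure D5:**
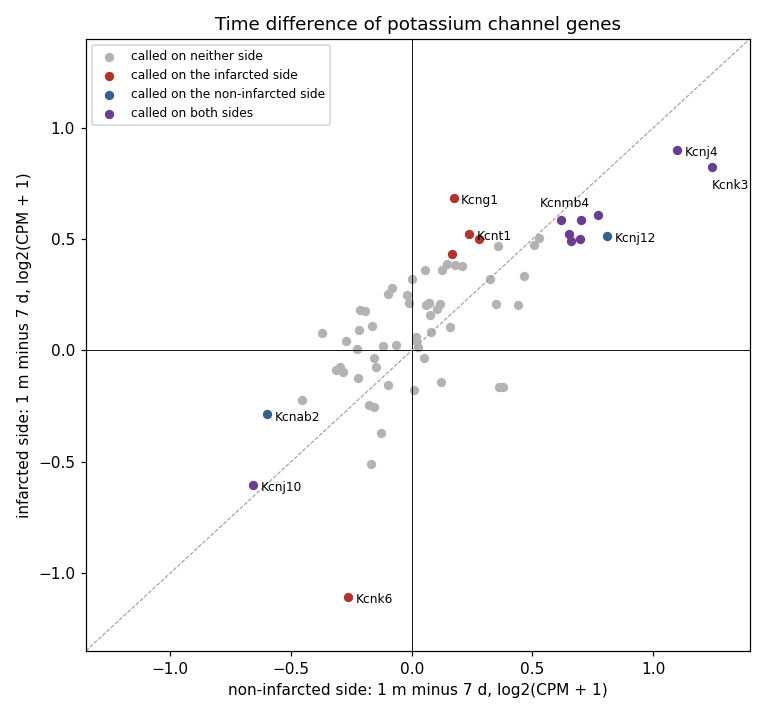
Log2(CPM + 1) difference, 1 m minus 7 d, of 70 members on the non-infarcted side (horizontal axis) and the infarcted side (vertical axis), coloured by the side on which a gene was called, with a dashed line of equal change. Kcnj4 and Kcnk3 lie far out on both axes, and Kcnj10 is low on both. Kcnk6 is at -1.11 on the infarcted side and negative on the other, where it was not called.

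Position of the remaining libraries bears on how the time difference reads. Of the 15 members that rose on the infarcted side, the naive library lay nearer to the 1 m than to the 7 d mean for 15 (83.6% of all 864 genes that rose), and the 2 m library for 12 (50.9%). Of the 10 that rose on the non-infarcted side, naive lay nearer to 1 m for 4 (61.5% of all 952) and the 2 m library for 1 (27.6%). For Kcna3 the 5 libraries of naive and 1 m cortex held 29.6 to 34.9 CPM and the 6 of 7 d and 2 m held 19.6 to 25.3 CPM. The housekeeping gene Atp5e, of the mitochondrial ATP synthase, divided the libraries the same way, at 584 to 925 against 219 to 345 CPM, and Stxbp3 at 17.9 to 22.3 against 2.82 to 6.73 CPM. The labels name no batch, and time and this division of the libraries cannot be told apart for 7 d against 1 m. Comparisons with naive cortex cross the division too, since the 7 d and 2 m libraries lie apart from naive in these genes.

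With levetiracetam, 1 member passed the threshold. On the infarcted side limma, with time as a second factor, called 1 of 73 members (1.37%), which was higher. Of 16399 genes 0.518% were called, 0.128% higher and 0.39% lower. Kcnj4 rose with the drug, from 78.4 to 94.8 CPM at 7 d and from 118.8 to 220.4 CPM at 1 m, by 0.58 ± 0.14 (SE, limma adjusted p = 0.0432). Most of that came from 1 m, where the pair differed by 0.89 on the log2 scale, against 0.27 at 7 d. The call held in 1 of 8 alternatives, with an adjusted p of 0.00532 to 0.9998 over the 8. Kcnj11, the pore of neuronal ATP-sensitive channels, came next, from 17.5 to 25 CPM at 7 d and from 18.4 to 31.9 CPM at 1 m (0.63 ± 0.17, SE, limma adjusted p = 0.0665).

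Positive differences with the drug were found for 60 of 73 members on the infarcted side, with a median of 0.14 (0.02 over all genes, of which 53.98% were positive). Both pairs were higher with the drug for 43 members (58.9%, against 32% of all genes) and lower for 6 (8.22%, against 22.2%). An unadjusted p below 0.05 was found for 13 members (8.35% of all genes). The 1 m LEV infarcted library also held more excitatory neuron marker tags, 2957 against 2060 CPM, with Slc17a7, the vesicular glutamate transporter, at 1516 against 615 CPM. Striatal markers were positive with the drug for 7 of 7 genes (1 called, median 0.44), with sums of 455 and 671 CPM without and with it at 7 d and 705 and 824 CPM at 1 m. The macrophage markers Lyz2 and Ms4a7 were called lower, Lyz2 at 384 against 54.4 CPM at 1 m. The part of these markers in the members' direction was not tested. On the non-infarcted side 0 of 73 members were called (0.00628% of 15931 genes), with 4 at an unadjusted p below 0.05 (5.01% of all genes) and 0 by edgeR. The difference between the sides in the drug's effect called 0 of 73 (0.173% of 16228 genes, 0.0739% downward), with 4 at an unadjusted p below 0.05 (3.32%).

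Partner genes of the channels that carry other symbols were read from fixed lists. Of 13 tested channel partners, such as Dpp6 and Dpp10 of Kcnd channels and Lgi1 and Adam22 of synaptic Kcna complexes, 0 were called between the sides, with 10 negative and a median of -0.11. From 7 d to 1 m on the infarcted side 3 of 13 rose: Amigo1, a partner of Kcnb channels, by 0.54, Lgi3 by 0.57 and Adam22 by 0.44. On the non-infarcted side 1 of 13 was called, Ank3, the ankyrin that anchors Kcnq and sodium channels at the axon initial segment, which fell by 0.64. Of 8 calcium channel genes 2 rose on each side over time, Cacna1b by 0.60 and 1.04 on the infarcted and the other side and Cacna1d by 1.32 and 1.53. Of 8 sodium channel genes 2 rose on the infarcted side (6 positive, median 0.21), and on the other side 1 fell (5 negative, median -0.26). Between the sides 1 of 8 sodium channel genes was called, Scn8a at -0.26 (limma adjusted p = 0.0463), and 0 of 8 calcium channel genes.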

How the data were processed

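Gene expression of 11 mouse cortex libraries was read from 1 table of CAGE values in CPM, as deposited by the authors. Per the submitters' processing notes, BWA 0.7.17, HISAT2 2.0.5, DESeq2 1.20.0 and the GRCm38 build were used, with no role stated for each. Multiplied by the library's total, all values came out as whole tags (within 0.01 tag), so tags were recovered for exact 95% counting intervals and for edgeR.

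Log2(CPM + 1) was tested with limma 3.58.1 (R 4.3.3, mean-variance trend) over all genes with a mean of at least 1 CPM in the libraries compared, with Benjamini-Hochberg adjustment, and the Kcn rows were then read out. Between the sides, 5 pairs were fitted with a term for each state, leaving 4 residual degrees of freedom, and time and drug tests had 1. Fold changes on this scale understate those of low genes. On simulated data, the fits with 1 residual degree of freedom gave more false calls than the nominal share. Alternatives were a pseudocount of 0.25, no expression limit or one of 5 CPM, median centring, TMM factors, edgeR 4.0.16 (quasi-likelihood test), other model terms and leaving out each state. Named genes are the members called in a test, the 6 highest and 6 lowest by side difference, the 10 with the highest mean, and a panel set by role, and others stand in a count or range. Results of some members are not reported here. The members and all lists were chosen with earlier results of these data known. Loci come from GENCODE M21 (GRCm38): all 73 members matched, and 0 shared tags with a neighbour within 5000 bases.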

Additional observations from a re-analysis of the deposited data

How the results depend on the processing

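Counts of potassium channel genes called between the sides, 8 in limma, were 5 with no expression limit, 15 with centring on the median gene, 14 with TMM factors and 1 with no state factor. Leaving out 1 state at a time gave 0 to 14: 0 without 7 d, 7 d with LEV or untreated 1 m, 5 (3 lower, 2 higher) without 1 m with LEV, and 14 without 2 m. The other side settings gave 6 to 11, with edgeR at 11 lower and 0 higher. Over time the infarcted side gave 17 calls, 8 in a model without the drug as a factor and 29 in a model of both sides, and 14 to 25 otherwise. The non-infarcted side gave 12 calls, 29 in the model of both sides and 12 to 15 otherwise. With levetiracetam the infarcted side gave 1 call, 2 with a limit of 5 CPM, and 0 with a pseudocount of 0.25, no expression limit, centring, TMM factors, edgeR, a model without time as a factor, or a model of both sides. The other 5 comparisons gave 0 calls under every alternative run. The shares of all genes called under the alternatives are not given here, so these changes in count are not read as particular to the members. Between the sides 10 of 73 members changed sign under an alternative, none of them called and each at most 0.103 in size, 5 of them among the 41 genes of the naming rule. Kcnd2 was at -0.0293 with centring and -0.005 with TMM factors, and ranged from -0.0223 (without 2 m) to 0.0828 when 1 state was left out. Kcnj16 was at -0.0334 with centring, -0.0078 with TMM factors and -0.0045 with edgeR, and ranged from -0.0379 (without 1 m) to 0.1343. Kcna4, Kcng1, Kcnk10, Kcnk9 and Kcnmb2 also changed sign. Leaving out 1 state took Kcna1 from -0.1687 to 0.0057 (without 7 d), Kcnab1 from -0.061 (without 2 m) to 0.2575, and Kcnt1 from -0.0844 to 0.0293 (without 7 d with LEV). Fewer samples or genes enter the left-out and limited fits, and for the other settings the cause was not tested. The state factor pairs the sides, and the labels carry no replicate numbers for another pairing. Genes under 2 CPM, such as Kcnk5, rest on few tags.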

Other observations

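Cell type markers not described with the channels gave these counts between the sides in limma, at an adjusted p of 0.05. Higher on the infarcted side were 6 of 8 oligodendrocyte markers, 2 of 4 oligodendrocyte precursor markers, 3 of 6 pericyte and smooth muscle markers, 4 of 5 macrophage markers and 2 of 5 thalamus markers. Of the endothelial markers 0 of 6 were called, of the hippocampus markers 0 of 4 and of the choroid plexus markers 0 of 2. Summed over the 73 potassium channel genes, the level was 3355.5 CPM in naive cortex. On the infarcted side it was 2522 CPM at 7 d, 2845 with LEV, 2942 at 1 m, 3411 with LEV and 3425 at 2 m, and on the other side 3204, 3463, 3553, 3772 and 3360.4 CPM. The infarcted side was the lower one in 4 of 5 states, and at 2 m the sums of both sides were close.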
